A study of Mus musculus with 6 samples.

Results

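Kruppel-like factors (KLFs) are transcription factors that bind CACCC and GC-rich boxes in promoters through a C-terminal array of zinc fingers. The 10 genes described here, Klf2, Klf3, Klf4, Klf5, Klf6, Klf7, Klf9, Klf10, Klf13 and Klf15, are 10 of 18824 genes in the deposited table and were taken by gene symbol. They were picked with their values in these libraries, CCR3 against VEH, already known, so their levels and differences are given as a description. Where limma's call rule is counted over them, the count stands beside that of all genes and nothing is read from it. The table holds 7 further Klf genes and 9 genes of the sister Sp family, which share the zinc finger array and serve as the comparison.

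The libraries came from skin of C57BL/6j mice in the MC903 model (MC903 is a vitamin D analogue that inflames skin much as atopic dermatitis does), and both groups had MC903. Group CCR3 held 3 libraries of mice given a compound, and group VEH held 3 libraries of mice given vehicle, with replicates 1, 2 and 4 in each. Which compound was given is not certain: SB328437, which blocks the chemokine receptor CCR3, is named in the series text, but the libraries carry the treatment label SC144, the name of a gp130 blocker. Age, sex, dose and time of treatment could not be read from the labels, and skin without MC903 was not analysed here.

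Within the family, members differ in the partners that they recruit outside the zinc fingers. KLF9, KLF10, KLF11, KLF13, KLF14 and KLF16 bind the corepressor SIN3A, KLF3, KLF8 and KLF12 bind the corepressor CtBP, and KLF1, KLF2, KLF4, KLF5, KLF6 and KLF7 act largely as activators. In epidermis KLF4 is required in mice for the skin barrier and KLF5 is found in proliferating basal cells. KLF9 and KLF15 are known as genes that glucocorticoids switch on, and KLF2, KLF4, KLF6 and KLF10 as genes that respond early to stimuli.

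Values are FPKM, which divide a gene's reads by its transcript length and by the mapped reads of the library, so levels of different genes can be set side by side. The sum over all genes ran from 517764 to 553305 FPKM per library, the read depth is unknown, and Pearson's r of log2(FPKM + 1) across 13063 tested genes, which are not independent replicates, was 0.987 to 0.996 within groups and 0.981 to 0.991 between them. The labels do not say whether each replicate is a separate mouse, and p-values thus cover only the spread between these samples. Skin identity was plain in every library: none of 9 basal and 15 suprabasal keratinocyte markers stayed under 1 FPKM in all libraries, and the basal markers summed to 5137 to 6968 FPKM in CCR3 against 5093 to 6106 FPKM in VEH. In whole skin, fewer cells of a type and less RNA per cell cannot be told apart.

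All 10 genes were expressed, and Klf4 was by far the most abundant, at 113.82, 139.10 and 122.57 FPKM in CCR3 against 119.61, 118.75 and 100.94 FPKM in VEH. In CCR3 the order of mean levels was Klf4, Klf3, Klf6, Klf9, Klf13, Klf10, Klf2, Klf5, Klf15 and Klf7, from 125.2 FPKM down to 6.73 FPKM. In VEH it was Klf4, Klf6, Klf3, Klf10, Klf2, Klf13, Klf9, Klf5, Klf7 and Klf15, from 113.1 FPKM down to 3.34 FPKM. Neighbours whose ranges over 3 libraries overlapped, and so did not differ beyond their spread, were Klf9 and Klf13, Klf10 and Klf2, and Klf2 and Klf5 in CCR3. In VEH they were Klf6 and Klf3, Klf10 and Klf2, Klf2 and Klf13, and Klf13 and Klf9. Klf9 thus stood 4th in CCR3 and 7th in VEH, and Klf15 9th in CCR3 and 10th in VEH.

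Klf15, Klf9 and Klf13 differed most between the groups, all higher in CCR3. Klf15 (Entrez gene 66277), a regulator of amino acid and glucose use in mouse liver and muscle, stood at 12.07, 11.28 and 14.67 FPKM in CCR3 against 3.32, 2.63 and 4.07 FPKM in VEH. The lowest CCR3 library lay well above the highest VEH library. Its mean was 3.79-fold higher in CCR3, with a log2 difference of 1.66 ± 0.14 (SE of the limma fit on log2(FPKM + 1), n = 3 each). Klf9 (16601), a repressor induced by glucocorticoid and thyroid hormones, stood at 37.65, 37.33 and 44.97 FPKM in CCR3 against 21.15, 19.05 and 17.93 FPKM in VEH. The groups did not overlap here either, and the log2 difference was 1.01 ± 0.09. Klf13 (50794), a factor first studied as a late activator of the chemokine gene Ccl5 in human T cells, stood at 29.24, 30.61 and 38.86 FPKM in CCR3 against 21.41, 22.38 and 19.44 FPKM in VEH, with no overlap and a log2 difference of 0.61 ± 0.11. CCR3 replicate 4 held the highest value of all 3 genes.

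Promoter windows of these 3 genes are shown because the genes were higher together, and that of Klf2 because its inducer MEF2, a factor activated by the kinase ERK5 in endothelium, has a known site there. Each window runs from 250 bases before to 50 bases after the start of the gene in RefSeq, is read in the direction of the gene, and lies on build GRCm38.p6 at chr6:90462326-90462625 (+) for Klf15, chr19:23140976-23141275 (+) for Klf9, chr7:63938866-63939165 (-) for Klf13 and chr8:72318812-72319111 (+) for Klf2. Capitals mark CACCC on either strand in all 4 windows, the E-box CACGTG in Klf15, CCAAT on either strand in Klf9 and Klf13, and the MEF2 site in Klf2.
Klf15: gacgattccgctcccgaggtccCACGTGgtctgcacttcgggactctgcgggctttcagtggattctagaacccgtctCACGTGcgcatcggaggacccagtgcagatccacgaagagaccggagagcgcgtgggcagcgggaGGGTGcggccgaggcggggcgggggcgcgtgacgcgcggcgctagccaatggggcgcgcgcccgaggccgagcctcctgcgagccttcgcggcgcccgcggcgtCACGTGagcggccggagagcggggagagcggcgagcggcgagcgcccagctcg
Klf9: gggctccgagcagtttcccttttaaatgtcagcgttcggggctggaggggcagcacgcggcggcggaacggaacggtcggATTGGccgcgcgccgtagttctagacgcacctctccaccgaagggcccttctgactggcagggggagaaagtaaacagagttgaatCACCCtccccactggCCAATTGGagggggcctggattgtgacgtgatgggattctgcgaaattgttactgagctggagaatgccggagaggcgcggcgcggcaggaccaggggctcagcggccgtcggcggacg
Klf13: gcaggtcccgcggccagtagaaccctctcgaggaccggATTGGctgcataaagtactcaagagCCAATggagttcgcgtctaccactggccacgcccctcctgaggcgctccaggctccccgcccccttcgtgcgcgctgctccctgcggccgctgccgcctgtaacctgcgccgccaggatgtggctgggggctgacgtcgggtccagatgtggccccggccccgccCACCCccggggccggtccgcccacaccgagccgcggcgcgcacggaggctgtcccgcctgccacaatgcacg
Klf2: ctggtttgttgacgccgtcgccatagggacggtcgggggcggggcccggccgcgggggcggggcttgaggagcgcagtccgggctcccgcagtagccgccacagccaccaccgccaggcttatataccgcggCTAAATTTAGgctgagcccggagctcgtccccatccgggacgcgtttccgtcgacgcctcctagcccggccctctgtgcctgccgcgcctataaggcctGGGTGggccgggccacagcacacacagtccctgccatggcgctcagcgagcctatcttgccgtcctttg

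The Klf15 window held 3 copies of CACGTG, the letters bound by the clock factors CLOCK and BMAL1 among others, starting 228, 172 and 3 bases before the gene start. Of 32851 promoter windows of the same length, 7.15% held at least 1 copy and 0.0883% held 3 or more. Klf4 and Klf6 held 1 copy each, and the windows of Klf2, Klf3, Klf7, Klf9 and Klf13 held none. Each of the 4 printed windows held 1 CACCC, the letters that KLF proteins themselves bind, as did 57.5% of all windows at least once, while Klf3 held 5 and Klf7 3. CCAAT was found 4 times in Klf6, 3 times in Klf9, where 2 copies on opposite strands overlap, 2 times in Klf13 and once in Klf15, and 37.4% of all windows held a copy. The MEF2 site in Klf2 starts 118 bases before the gene start, and 3.19% of all windows held such a site.

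Neither the full glucocorticoid response element, AGAACA and TGTTCT set NNN apart (0.00913% of windows), nor AGAACA by itself (19% of windows) was found on either strand of the 8 windows that matched. The cyclic AMP element TGACGTCA (1.79%), TATAAA (13.6%) and the CArG box (1.63%) were not found either. The shorter TGACG (20.8% of windows) occurred in Klf2, Klf3, Klf4, Klf9, Klf13 and Klf15, GGGCGG (35.7%) in all of the 8 but Klf9, and the AP-1 letters TGANTCA (7.81%) in Klf9 alone. GC content was 58.3% to 76.7% in these 8 windows, against a median of 52.7% over all windows, and GC-rich motifs are met more often in such sequence. Klf5 and Klf10 were not matched. A match or its absence describes letters in 300 bases and says nothing of binding.

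**Figure D1:**
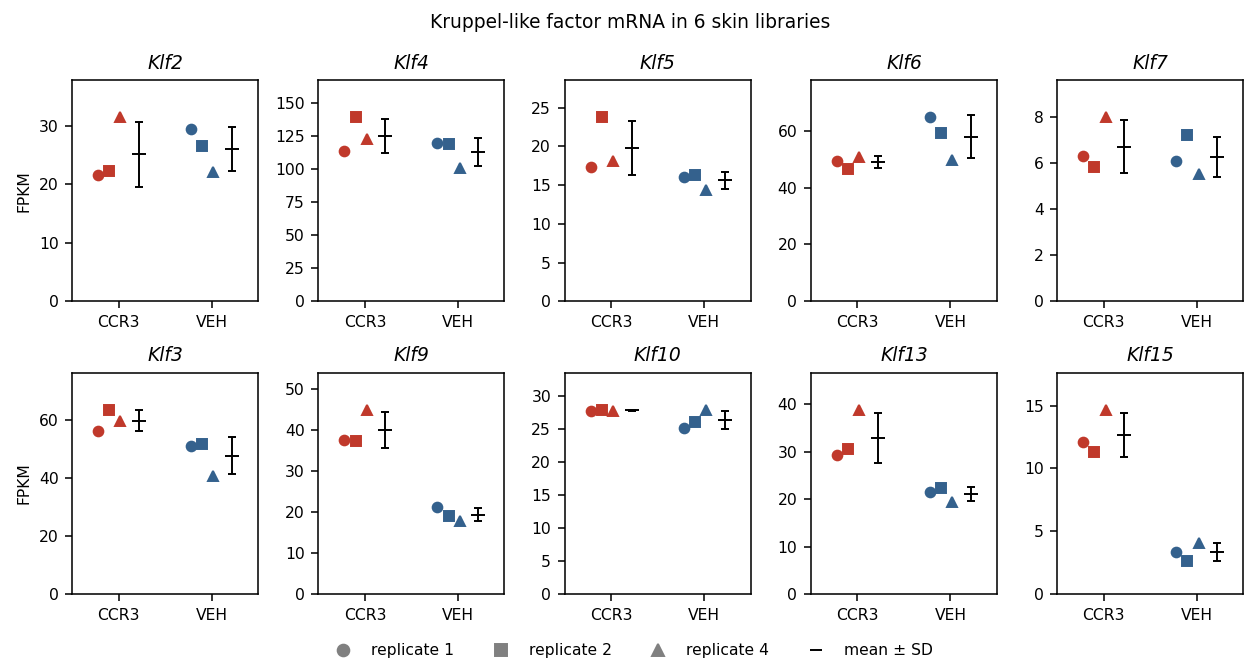
Level of each Kruppel-like factor in FPKM (vertical axes, from 0), with 1 point per library, CCR3 left and VEH right, and the mean with its SD in black. The CCR3 points of Klf15, at 11.28 to 14.67 FPKM, lie above all VEH points, at 2.63 to 4.07 FPKM, whereas those of Klf2, Klf4, Klf6, Klf7 and Klf10 overlap with VEH.

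Of the other genes that bind SIN3A, 1 is among the 10. Klf10 (21847), known as a gene that TGF-beta induces early, stood at 27.82, 27.91 and 27.81 FPKM in CCR3 against 25.20, 26.15 and 27.94 FPKM in VEH. Its log2 difference was 0.07 ± 0.06, with 0.04 without VEH replicate 1 and 0.11 without VEH replicate 4, and the 3 CCR3 values had an SD of 0.055 FPKM, the smallest of the 10 genes in either group. Among its relatives outside the 10, Klf11 stood at 5.10, 4.23 and 5.76 FPKM in CCR3 against 3.70, 3.65 and 3.40 FPKM in VEH, without overlap. It did not pass by limma with Benjamini-Hochberg adjustment over all tested genes (log2 difference 0.39 ± 0.10 SE, adjusted p = 0.0797), though it did without CCR3 replicate 2 (adjusted p = 0.034). Klf16 was 6.00 ± 0.577 FPKM in CCR3 against 6.86 ± 0.716 FPKM in VEH (SD, n = 3 each, limma adjusted p = 0.326, with a log2 difference of -0.17 that was -0.10 without CCR3 replicate 4), and Klf14 stayed at or under 0.05 FPKM in every library. Log2 differences in the SIN3A-binding group ran from -0.17 for Klf16 to 1.01 for Klf9.

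Klf3 (16599), a CtBP-binding repressor that acts in blood and fat cells of mice, stood at 56.13, 63.44 and 59.57 FPKM in CCR3 against 50.80, 51.71 and 40.45 FPKM in VEH. The groups did not overlap, with a log2 difference of 0.33 ± 0.10 that was 0.21 without VEH replicate 4, the low library. Of the other CtBP binders, Klf12 was 1.31 ± 0.172 FPKM in CCR3 against 0.903 ± 0.031 FPKM in VEH (SD, n = 3 each), also without overlap, and did not pass (log2 difference 0.27 ± 0.09 SE, limma adjusted p = 0.12). Klf12 passed the filter on low values only through CCR3, where all 3 libraries exceeded 1 FPKM. Klf8 lay under the filter in both groups, at 0.63 to 0.78 FPKM in CCR3 against 0.49 to 0.75 FPKM in VEH.

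Log2 differences in the activator group ran from -0.23 for Klf6 to 0.31 for Klf5. Klf5 (12224), a factor of dividing epithelial cells, stood at 17.38, 23.76 and 18.12 FPKM in CCR3 against 16.01, 16.35 and 14.41 FPKM in VEH. The groups were narrowly separate, and the log2 difference of 0.31 ± 0.12 dropped to 0.18 without CCR3 replicate 2. Klf4 (16600), with the values given above, overlapped between groups at a log2 difference of 0.14 ± 0.10, which was 0.07 without CCR3 replicate 2 and also 0.07 without VEH replicate 4. Klf3, Klf4 and Klf5 were each highest in CCR3 replicate 2 and lowest in VEH replicate 4. CCR3 replicate 2 was also the library with the highest sum of keratinocyte markers, at 6968 FPKM for the basal and 9365 FPKM for the suprabasal list, while the suprabasal sums were 7376 and 5399 FPKM in CCR3 replicates 1 and 4 and 5859 to 6091 FPKM in VEH. All 9 basal and 13 of 15 suprabasal markers had positive log2 differences (medians 0.28 each) and none was called by limma, with 5 and 3 higher at an unadjusted p under 0.05. Without CCR3 replicate 4, 8 suprabasal markers and 1 basal marker were called higher, and without CCR3 replicate 2, 1 basal marker. Hair follicle markers summed to 258.9 to 296.6 FPKM in CCR3 against 172.6 to 194.0 FPKM in VEH, without overlap. Most of that sum was Tchh, at 244.6 to 281.7 FPKM in CCR3 against 159.3 to 182.3 FPKM in VEH. Of 6 tested markers 1 was called higher (Tchh, list median 0.36). The count was 2 without CCR3 replicate 4 and 0 without CCR3 replicate 1 or VEH replicate 1 or 4. Msx2 did not overlap either, whereas Krt25, Krt71, Lef1 and Sox9 overlapped, and Lef1 had a negative log2 difference (-0.19). The untested Krt27, Krt28, Krt73, Krt31, Krt35 and Lgr5 were under 1 FPKM in every library. The part of keratinocyte and follicle content in the Klf3, Klf4 and Klf5 values was not tested.

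Klf6 (23849), a widely expressed factor that injury and cytokines induce, stood at 49.44, 46.71 and 50.76 FPKM in CCR3 against 64.78, 59.27 and 49.85 FPKM in VEH. VEH replicate 4 fell within the CCR3 range, and the log2 difference was -0.23 ± 0.10, or -0.15 without VEH replicate 1. Klf2 (16598), the flow-responsive factor of endothelium and of resting T cells, stood at 21.53, 22.23 and 31.43 FPKM in CCR3 against 29.46, 26.58 and 22.04 FPKM in VEH. It had the widest spread of the 10 in CCR3, with a coefficient of variation of 22%, and CCR3 replicate 4 exceeded every VEH library. Its log2 difference of -0.06 ± 0.15 became -0.23 without CCR3 replicate 4 and -0.17 without VEH replicate 4. It was 0.03 without CCR3 replicate 1, 0.01 without CCR3 replicate 2 and 0.03 without VEH replicate 1, and -0.03 with median centring or equal sums. Klf7 (93691), which promotes growth of nerve fibres in mice, stood at 6.33, 5.85 and 8.01 FPKM in CCR3 against 6.09, 7.25 and 5.54 FPKM in VEH, with a log2 difference of 0.08 ± 0.12 that became -0.03 without CCR3 replicate 4. Without CCR3 replicate 2, VEH replicate 2 and VEH replicate 4 it was 0.16, 0.17 and 0.01. Klf1 of red blood cells and Klf17 were at most 0.17 and 0.01 FPKM.

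T cells and endothelium, which carry Klf2, had markers with negative medians, but so did other lists. Medians were -0.22 for smooth muscle and pericyte, -0.11 for fibroblast, -0.02 for sebaceous gland and 0.25 for neutrophil markers. The 9 tested T cell markers all had negative log2 differences (median -0.46), with 3 called lower (Cd3g, Cd28 and Cd4) and 8 lower at an unadjusted p under 0.05, and summed to 33.7, 37.9 and 47.7 FPKM in CCR3 against 61.7, 59.0 and 57.4 FPKM in VEH. Endothelial markers had a median of -0.16, with 3 of 10 called lower (Cldn5, Egfl7 and Kdr) and no more at an unadjusted p under 0.05, and summed to 131.7, 117.8 and 160.9 FPKM in CCR3 against 156.4, 162.9 and 164.9 FPKM in VEH. Both sums were highest within CCR3 in replicate 4, the library with the highest Klf2. Without that library 7 T cell and 5 endothelial markers were called lower. Without any other single library no endothelial marker was called, and the T cell count was 0 without VEH replicate 1 or 4 and 1 without CCR3 replicate 1, CCR3 replicate 2 or VEH replicate 2. With equal library sums, median centring and no filter the endothelial counts were 0, 1 and 0, and the T cell counts 2, 3 and 1. No T cell or endothelial marker stayed under 1 FPKM in every library. None of 10 macrophage markers was called (median -0.21, 1 higher and 1 lower at an unadjusted p under 0.05, and 3 lower without CCR3 replicate 4), nor any of 8 Schwann cell markers (median -0.05, 1 lower at an unadjusted p under 0.05). The markers' part in the Klf2, Klf6 and Klf7 values was not tested.

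**Figure D2:**
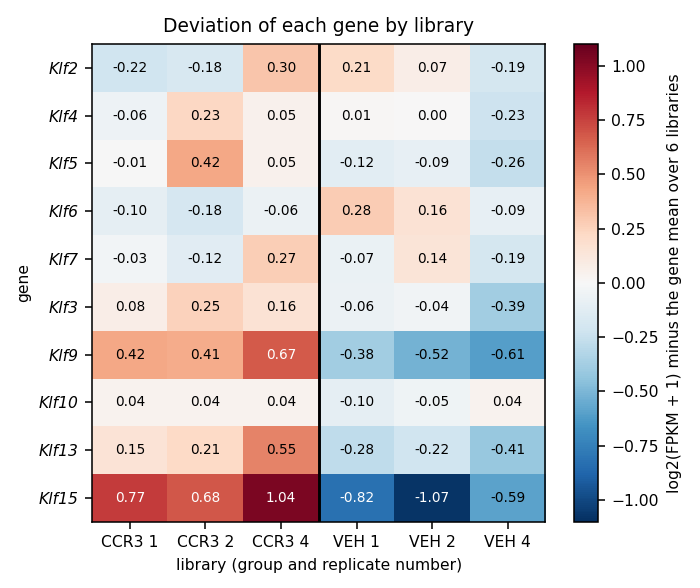
Deviation of log2(FPKM + 1) from the mean of each gene over the 6 libraries (colour and printed values), with genes in rows and libraries in columns, CCR3 left of the line. Klf9, Klf13 and Klf15 are positive in all CCR3 and negative in all VEH libraries, and Klf2 is positive in CCR3 replicate 4 and in VEH replicates 1 and 2.

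As a set the 10 genes had 8 positive and 2 negative log2 differences, with a median of 0.23 against -0.04 over all tested genes. All 10 passed the filter on low values. By limma, 3 of the 10 were past an adjusted p of 0.05, all higher (Klf15, Klf9 and Klf13), and none lower (the unadjusted p of 1 was under 0.05 in that direction), where 1.36% of tested genes were called higher, 2.37% lower and 3.74% in either direction. The groups did not overlap for 5 of the 10, all higher in CCR3, against 10.4% of tested genes higher and 28.6% in either direction without overlap. Since the genes were picked with this contrast in view, nothing is read from these counts. Without CCR3 replicate 1 or any 1 of the VEH libraries the count was 2, with Klf13 no longer among them. CCR3 replicate 4 was the highest library for 5 of the 10 genes and CCR3 replicate 2 for 3, and VEH replicate 4 was the lowest for 6.

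The summed level of the 10 genes was 371.4, 408.2 and 416.8 FPKM in CCR3 against 357.8, 350.1 and 302.6 FPKM in VEH, higher in each CCR3 library. Klf4 made up 29.4% to 34.1% of that sum in CCR3 and 33.4% to 33.9% in VEH. Klf6 held 11.4% to 13.3% in CCR3 and 16.5% to 18.1% in VEH, so its share, unlike its level, did not overlap between the groups. Klf9 held 9.14% to 10.8% in CCR3 and 5.44% to 5.93% in VEH, and Klf15 2.76% to 3.52% in CCR3 and 0.751% to 1.34% in VEH. These shares are tied to each other, since a higher share of one gene lowers the others.

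The rest of the family gave no calls. Of 7 Klf genes outside the 10, 3 were tested and none passed by limma, with Klf11 and Klf12 at an unadjusted p under 0.05. For Klf12 nothing is read from this, since it entered the test only through its CCR3 values, and its log2 difference was 0.48 with a pseudocount of 0.1. Of 9 Sp genes, 5 were tested and none passed, also at an unadjusted p under 0.05. Sp3, the most abundant of them, was 34.5 ± 0.380 FPKM in CCR3 against 33.9 ± 1.68 FPKM in VEH (SD, n = 3 each, limma adjusted p = 0.804), and Sp1 13.9 ± 0.210 FPKM in CCR3 against 13.4 ± 1.14 FPKM in VEH (limma adjusted p = 0.669). Sp2 and Sp4 had log2 differences of -0.07 and -0.02 (limma adjusted p = 0.61 and 0.878), and Sp6, a factor of skin appendages, 0.18 (limma adjusted p = 0.473). The Sp6 value rested on CCR3 replicate 2, at 4.78 FPKM against 3.14 and 2.94 FPKM in CCR3 replicates 1 and 4, and was 0.01 without it and 0.29 without CCR3 replicate 4. The small differences of the other Sp genes moved by over 1.5 times under several alternatives. The sign of Sp4 turned with median centring, without CCR3 replicate 2 and without VEH replicate 1, and that of Sp1 without VEH replicate 4. Sp5 was 0.42 to 1.15 FPKM in CCR3 against 0.74 to 0.97 FPKM in VEH, and Sp7, Sp8 and Sp9 stayed at or under 0.18 FPKM.

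**Figure D3:**
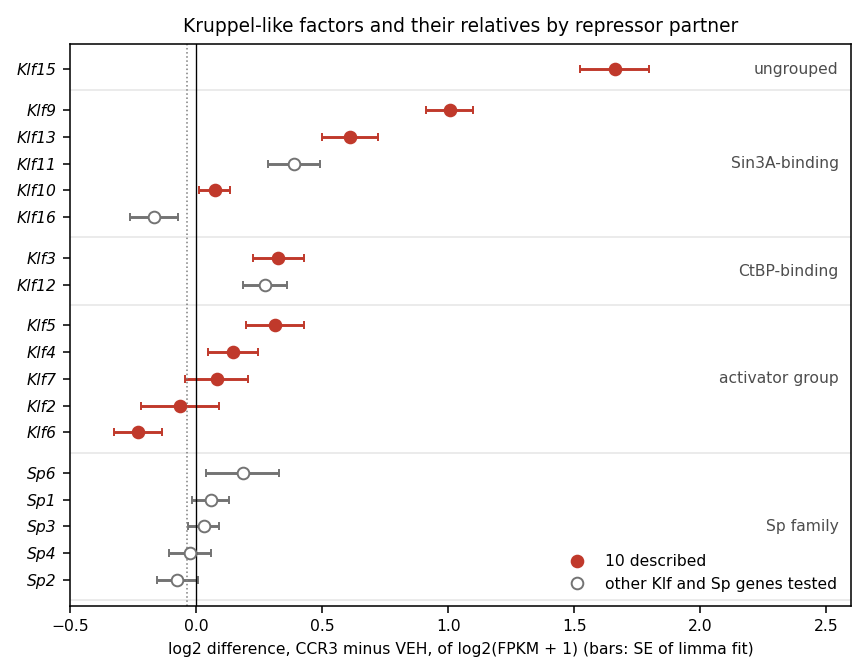
Log2 difference, CCR3 minus VEH, of log2(FPKM + 1) with its SE for the 10 genes described (filled) and the other Klf and Sp genes tested (open), grouped by corepressor or activator class. Klf15 at 1.66 and Klf9 at 1.01 lie farthest to the right, the Sp genes lie between -0.07 and 0.18, and the dotted line marks the median of all tested genes.

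Genes whose pattern over the 6 libraries was closest to that of Klf15, Klf9 or Klf13 were sought. Closeness was the root mean square (RMS) difference of log2(FPKM + 1) after centring each gene on its mean. It spans both groups, so any gene with a similar difference between CCR3 and VEH comes out close. The median over tested genes likewise grows with the member's own difference. Closeness is thus given as a description and says nothing of shared control. Closest to Klf15 was Pdk4, whose product restrains pyruvate dehydrogenase, at an RMS of 0.07, where the median over tested genes was 0.87. Pdk4 stood at 14.38, 14.15 and 17.09 FPKM in CCR3 against 4.23, 3.86 and 5.42 FPKM in VEH, so that it shared with Klf15 its highest library, CCR3 replicate 4, and its lowest, VEH replicate 2. Fam107a (RMS 0.11), a stress-responsive gene whose product binds actin, and Depp1 (RMS 0.15), a FOXO-induced gene, came next, with means of 7.21 and 11.3 FPKM in CCR3 against 1.82 and 2.93 FPKM in VEH. Closest to Klf9 were Trp53inp1, a stress gene of the p53 pathway (RMS 0.07), Ddit4, an inhibitor of the growth kinase complex mTORC1 (RMS 0.09), and Gm46894 (RMS 0.10), where the median was 0.54. Trp53inp1 stood at 25.93, 23.56 and 26.89 FPKM in CCR3 against 12.69, 10.89 and 10.69 FPKM in VEH, and Ddit4 at 104.93, 114.05 and 141.31 FPKM in CCR3 against 55.74, 58.05 and 55.92 FPKM in VEH. Closest to Klf13 were Jade2 (RMS 0.06), Cblb, a ubiquitin ligase gene that restrains T cell activation (RMS 0.06), and the forkhead factor gene Foxo1 (RMS 0.07), where the median was 0.37. Foxo1 averaged 9.51 ± 1.17 FPKM in CCR3 against 5.61 ± 0.318 FPKM in VEH. Among the 10 genes, the one closest to Klf15 was Klf9 (RMS 0.37), the one closest to Klf9 was Klf13 (RMS 0.21), and the one closest to Klf13 was Klf3 (RMS 0.20).

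**Figure D4:**
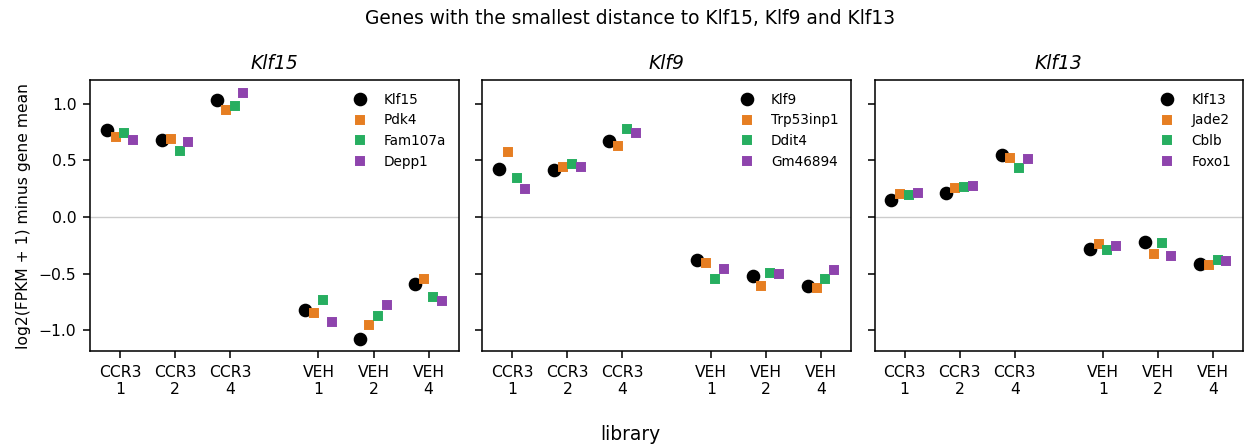
Log2(FPKM + 1) minus the gene mean in each library (horizontal axis, CCR3 left) for Klf15, Klf9 and Klf13 (black circles) and the 3 genes nearest to each (squares). Each set is positive in the 3 CCR3 libraries and negative in the 3 VEH libraries, and CCR3 replicate 4 is the highest library of all 12 genes.

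Hormone receptors are known to induce Klf9 and Klf15, and genes known as glucocorticoid-induced are set beside them as a description. Of 21 genes known as glucocorticoid-induced, 9 rose and none fell by limma (median log2 difference 0.45), with 13 higher at an unadjusted p under 0.05. Over all tested genes 1.36% were called higher and 2.37% lower, shares that stand beside this and each list count below. Zbtb16, a zinc finger factor, rose by 2.40 ± 0.09 (SE) on the log2 scale, Fkbp5, a co-chaperone of steroid receptors, by 1.98 ± 0.12, Pdk4 by 1.56 ± 0.12, and Tsc22d3, the glucocorticoid-induced leucine zipper, by 1.16 ± 0.10 (limma adjusted p = 4.38e-05, 0.000903, 0.00182 and 0.00248). These 4 passed without each library in turn, and the list's count of higher genes ran from 7 to 10, with 1 lower without CCR3 replicate 4. The list was drawn up with earlier results of these libraries known, so it is not independent of them. Of 8 steroid, thyroid hormone and vitamin D receptor genes, 6 were tested and 1 was higher, the vitamin D receptor gene Vdr, at 19.1 ± 0.517 FPKM in CCR3 against 13.1 ± 0.346 FPKM in VEH (SD, n = 3 each, limma adjusted p = 0.00723, or 0.0509 without VEH replicate 1). The glucocorticoid receptor gene Nr3c1 was 20.9 ± 0.56 FPKM in CCR3 against 21.7 ± 0.636 FPKM in VEH (limma adjusted p = 0.655). Nr3c1 was chosen after its values were seen. The part of these receptors in the Klf9 and Klf15 values was not tested.

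Klf9, Klf10 and Klf15 are also known as outputs of the circadian clock. Of 15 clock genes tested, 2 rose and none fell (median 0.23), with 7 higher and 1 lower at an unadjusted p under 0.05. Ciart, a repressor in the clock, was 2.52 ± 0.015 FPKM in CCR3 against 1.31 ± 0.159 FPKM in VEH (SD, n = 3 each, limma adjusted p = 0.0114, or 0.0632 without VEH replicate 4). Nr1d2, the gene of a heme-binding nuclear receptor, was 19.3 ± 1.09 FPKM in CCR3 against 14.8 ± 0.795 FPKM in VEH (limma adjusted p = 0.037). Of the libraries left out in turn, Nr1d2 was called only without CCR3 replicate 4, and its adjusted p reached 0.149 without VEH replicate 4. The count for the clock was 3 without CCR3 replicate 4, 0 without VEH replicate 4 and 1 without any other library. The time of day at sampling is not given in the sources used here, and the part of the clock in the Klf9, Klf10 and Klf15 values was not tested.

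Known KLF15 targets of fuel use in liver and muscle were counted in the same way, where 1.36% of all tested genes were called higher. Of 14, 12 were tested, 2 rose (Pdk4 and Gpt2) and none fell (median 0.03), with 2 higher and 2 lower at an unadjusted p under 0.05. Tat and Hpd were not tested, being under 1 FPKM in every library. Tat stood at 0.41, 0.35 and 0.73 FPKM in CCR3 against 0.1, 0.0 and 0.07 FPKM in VEH. Pdk4 is also on the glucocorticoid list. Gpt2, which encodes an alanine aminotransferase, was 18.1 ± 1.14 FPKM in CCR3 against 13.4 ± 1.11 FPKM in VEH (SD, n = 3 each, limma adjusted p = 0.0348). Its call was lost without CCR3 replicate 1 or any 1 of the VEH libraries (up to adjusted p = 0.154), which left 1 gene of the list called, whereas 3 were higher and 1 lower without CCR3 replicate 4. Fat and muscle are tissues rich in Klf15. All 8 adipocyte markers had negative log2 differences (median -0.67), with 2 called lower (Lpl and Lep) and 7 lower at an unadjusted p under 0.05, and summed to 638.5, 288.5 and 403.7 FPKM in CCR3 against 601.7, 596.3 and 747.4 FPKM in VEH. Skeletal muscle markers summed to 196.5, 354.8 and 222.5 FPKM in CCR3 against 252.9, 120.9 and 281.8 FPKM in VEH, with none of 9 called, also at an unadjusted p under 0.05, and with Actn3 under 1 FPKM in every library. The adipocyte sums overlapped between the groups through CCR3 replicate 1 alone. The adipocyte count was 5 without CCR3 replicate 1, 1 without CCR3 replicate 2 or VEH replicate 2, and 0 without VEH replicate 1 or 4. It was 1 with equal library sums, median centring or a pseudocount of 0.1, and 0 with no filter. The part of fat and muscle content in the Klf15 values was not tested.

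Fat cell factors that KLF5, KLF9 and KLF15 act beside gave 1 call among 10 tested (median -0.12). Pparg, the master regulator of fat cells, was lower, at 9.41 ± 1.00 FPKM in CCR3 against 13.1 ± 0.837 FPKM in VEH (SD, n = 3 each, limma adjusted p = 0.037). It lost the call without CCR3 replicate 2 or any 1 of the VEH libraries (up to adjusted p = 0.161), and also with no filter (0.0774) and with equal library sums (0.0552). Without CCR3 replicate 4 the list had 2 lower. Among 19 tested keratinocyte factors that work with KLF4 and KLF5, none was called by limma, with 3 higher and 1 lower at an unadjusted p under 0.05 (median 0.09). Without CCR3 replicate 4, 2 of them were lower.

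Vessel genes known to be controlled by KLF2 and KLF4 were lower where they were called. Their log2 differences were negative for 9 and positive for 4. Of 13, 4 fell and none rose by limma (median -0.31), with 7 lower and 1 higher before adjustment (p under 0.05). Sele, the gene of E-selectin, was 6.21 ± 1.03 FPKM in CCR3 against 12.5 ± 1.43 FPKM in VEH (SD, n = 3 each), and the chemokine gene Ccl2 was 33.0 ± 6.43 FPKM in CCR3 against 70.0 ± 14.5 FPKM in VEH (limma adjusted p = 0.0107 and 0.0195). Icam1 and Kdr, the genes of an adhesion molecule and of a VEGF receptor, had log2 differences of -0.50 and -0.47 (limma adjusted p = 0.0458 and 0.0489). The list mixes genes that KLF2 or KLF4 activate in endothelium with genes that they repress. Its direction as a whole thus has no single meaning for these factors. Nos3 and Thbd, which were not called, had log2 differences of -0.31 and 0.16 (limma adjusted p = 0.22 and 0.205). Vcam1 and Edn1, also on the list, overlapped between the groups at log2 differences of 0.13 and 0.22 (limma adjusted p = 0.753 and 0.255). The count depended on single libraries, at 0 without VEH replicate 1, 1 without CCR3 replicate 1 or VEH replicate 2, 2 without CCR3 replicate 2, 3 without VEH replicate 4 and 5 without CCR3 replicate 4. It was 2 with equal library sums, 3 with median centring and 1 with no filter, and without VEH replicate 1 the adjusted p was 0.0591 for Sele, 0.0873 for Ccl2, 0.177 for Icam1 and 0.184 for Kdr. Homing genes under KLF2 in T cells gave no limma call among 9 (median -0.15, 4 lower at an unadjusted p under 0.05), and 2 lower without CCR3 replicate 4. By limma none of 7 tested genes of the ERK5 and MEF2 route to Klf2 and Klf4 was called (median -0.03, 2 lower at an unadjusted p under 0.05).

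The pathway behind Klf10 and the proteins that KLFs recruit showed little. Of 17 genes of the TGF-beta pathway, 1 rose and none fell (median -0.0049), with 3 higher and 3 lower at an unadjusted p under 0.05. Ccn2, a matrix protein gene and target of the pathway, was 449.6 ± 42.2 FPKM in CCR3 against 261.8 ± 22.7 FPKM in VEH (SD, n = 3 each, limma adjusted p = 0.00999, or 0.0529 without VEH replicate 4). Without CCR3 replicate 4, 2 genes of the pathway were higher and 3 lower, and without VEH replicate 4, 1 was lower. Of 18 genes of KLF cofactors, among them the corepressors Sin3a, Ctbp1 and Ctbp2, none was called by limma (median -0.07), with 2 higher and 3 lower at an unadjusted p under 0.05 and 1 lower without CCR3 replicate 4.

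Immediate early genes, the first to respond to growth factors, stress or handling of tissue, were mostly lower in CCR3, and their summed level did not overlap, at 636.7, 672.6 and 698.0 FPKM in CCR3 against 857.9, 871.9 and 711.8 FPKM in VEH. Of 20, 8 fell and none rose by limma (median -0.43), with 16 lower and 1 higher before adjustment (p under 0.05). Fosb, a subunit of AP-1, was 0.437 ± 0.144 FPKM in CCR3 against 10.6 ± 7.01 FPKM in VEH, and Atf3, a stress-induced repressor, 3.77 ± 0.646 FPKM in CCR3 against 11.6 ± 3.46 FPKM in VEH (SD, n = 3 each, limma adjusted p = 0.0137 and 0.0126). Ier5 and Nr4a2 had log2 differences of -0.49 and -0.65 (limma adjusted p = 0.00796 and 0.0107). Klf2, Klf4, Klf6 and Klf10, which share this early behaviour, had log2 differences of -0.06, 0.14, -0.23 and 0.07, all smaller in size than the median of the list, whose part in these values was not tested. Fosb was no longer called when CCR3 replicate 1 (adjusted p = 0.0545) or VEH replicate 2 was left out, and Ier5 and Nr4a2 were not without VEH replicate 1 (adjusted p = 0.058 and 0.0551). The count of lower genes was 4 without CCR3 replicate 1, 2 without VEH replicate 1 and 3 without VEH replicate 2. In the other libraries left out it was 8.

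**Figure D5:**
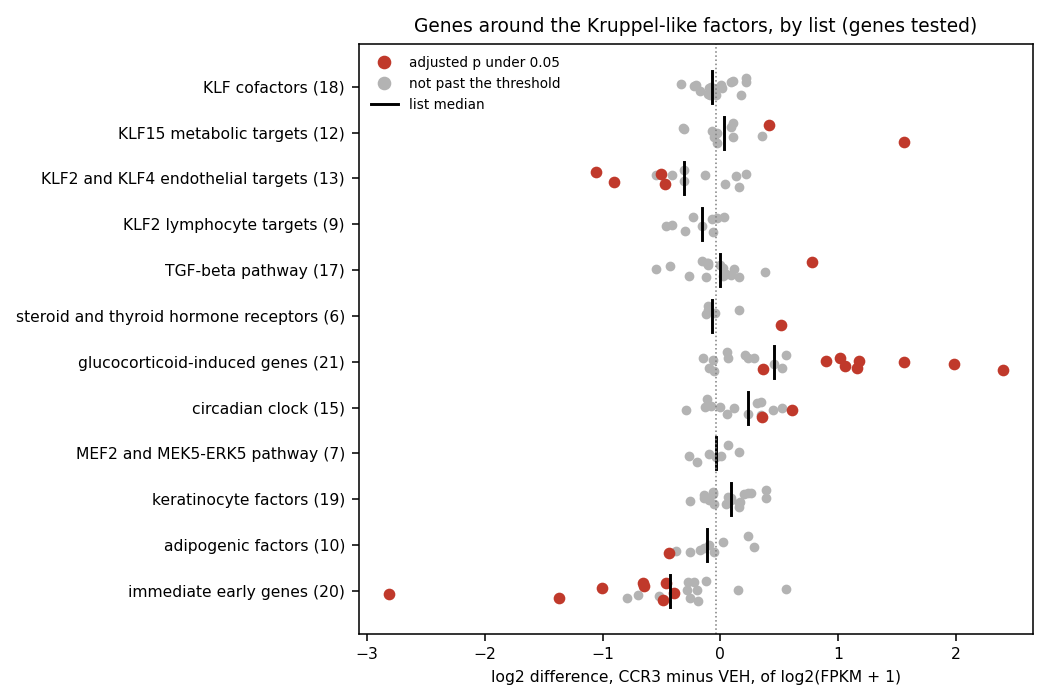
Log2 difference, CCR3 minus VEH, of each tested gene in 12 lists of genes around the Kruppel-like factors, with called genes in red, list medians as black bars and the median of all tested genes as a dotted line. Glucocorticoid-induced genes have the highest median, at 0.45, and immediate early genes the lowest, at -0.43.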

How the data were processed

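Poly(A) RNA of 6 skin libraries gave single-end reads 50 bases long, per the labels' protocols. The submitters' processing notes name HISAT as a tool. For its version, the genome build, annotation, counting tool and strand: not given in the sources used here. The authors deposited 1 table of 18824 genes with FPKM to 2 decimals and no counts. Among 4132 low values of 967 genes, 4.96% came out as a whole number when divided by the smallest value of that gene (tolerance 0.05). The division ran across libraries and on values rounded to 2 decimals, so it could not show the depth. Without counts, read depth is unknown.

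Values were taken as log2(FPKM + 1), which understates changes of low genes. The filter kept 13063 genes that reached 1 FPKM in 3 libraries or more and left out 5761. The groups were compared by limma 3.58.1 (R 4.3.3, variance trend, two-sided), adjusted over all tested genes by Benjamini-Hochberg, with calls at 0.05. A test for counts did not apply. Means and SDs are of FPKM. Members and lists were chosen with earlier results of these data known. Named were all Klf and Sp genes, up to 4 called genes of each list by smallest p, and the 3 nearest genes of each member with a log2 difference of at least 0.5. Called marker genes were named after their values were seen, as were Nr3c1, Nos3, Thbd, Vcam1, Edn1, Tat, Hpd, the tested hair follicle markers and the cofactors. Promoters came from RefSeq (GRCm38.p6). Both strands were searched.

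In simulated data for CCR3 against VEH (5 draws of 13063 genes), some genes were given log2 changes of 0.5, 1 and 2. Of these limma found 77.3%, 99.1% and 100%, and 7.9% of its calls were false. Noise was drawn for each gene on its own from limma's fitted spread, without effects shared by the genes of a library. The rates describe that simpler setting and need not hold for the real calls. Alternatives were a pseudocount of 0.1, no filter, a filter of 3 FPKM, median centring, equal library sums, a replicate block and each library left out. Python 3.11.15 was used for tables and plots.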

Additional observations from a re-analysis of the deposited data

How the results depend on the processing

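Over all genes 178 were called higher and 310 lower in CCR3. The counts were 90 and 130 with no filter and 89 and 144 with the replicate block, and 158 and 173 with equal library sums. With each library left out they ran from 28 to 558 higher and from 40 to 1083 lower, the most without CCR3 replicate 4. Calls were 36.5% higher, against 46.8% with median centring and 47.7% with equal sums, and those scalings moved the median gene by 0.03. Deviations of same-numbered libraries of the groups correlated at r = -0.06, 0.08 and -0.03 for numbers 1, 2 and 4. No shared deviation was seen, but with 3 libraries per group this cannot exclude a pairing. The labels do not state one. Not every library correlated best with its own number.

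Of the 10 Kruppel-like factors 3 were called higher, and 2 with no filter, with the replicate block and without 4 of the libraries in turn. Since the genes were picked on this contrast, these counts support nothing. As a description, the log2 differences of Klf9, Klf15 and Klf13 ran from 0.92 to 1.07, 1.54 to 1.91 and 0.49 to 0.69. The sign of Klf2 and Klf7 turned where libraries were left out, and that of no other member turned under the alternatives run. Under the replicate block Sele, Icam1, Kdr, Nr1d2 and Atf3 were no longer called (adjusted p = 0.0502, 0.0928, 0.106, 0.0566 and 0.0515). With no filter 5 immediate early genes were lower and 1 clock gene and 1 KLF15 target higher. Median centring gave 3 clock and 2 TGF-beta genes higher. Unknown depth limits what can be said of genes near 1 FPKM, such as Klf12.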
